A study of Mus musculus with 10 samples.

Results

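Back skin of E17.5 mouse embryos without the complex III subunit Uqcrq in the epithelium was described in 4 compartments of the skin. Cells were kept if more than 1000 and fewer than 6000 genes were detected in them and if less than 10% of their unique molecular identifiers (UMIs, each 1 counted RNA molecule) came from mitochondrially encoded genes. Kept cells were then chosen by marker UMIs. Epithelial cells had at least 10 UMIs of Krt5 and Krt14 together, the keratins of basal epithelium. Fibroblasts had at least 30 UMIs of the collagen genes Col1a1 and Col3a1 and under 10 of the keratins. Endothelial cells had at least 2 of the 3 vascular genes Pecam1, Cdh5 and Kdr detected, and melanocytes had at least 10 UMIs of the pigment genes Dct, Pmel and Tyrp1. Of 11471 kept cells in both libraries, 10435 fell in at least 1 compartment, out of 82691 barcodes in the 10 libraries of the series.

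The control embryo carried the genotype Control, and the other embryo was QPC fl/fl with K14Cre, called QPC cKO here. In QPC cKO the floxed Uqcrq gene (QPC) is deleted by a Cre recombinase under the Krt14 promoter, which is active in the embryonic epidermis and hair follicles and is not known to drive expression in fibroblasts, endothelium or melanocytes. Whole back skin was dissociated with collagenase and then trypsin, and RNA was counted with the 10x Genomics 3' v3 chemistry. Each genotype gave 1 library, so every difference between them is also a difference between these libraries, no test was possible, and no embryo-to-embryo spread can be given. The control library held 195567343 UMIs over 8240 barcodes and the QPC cKO library 202506985 over 9930. They kept 5353 cells with a median of 22340 UMIs and 6118 cells with a median of 19241. The libraries shared 1702 barcode sequences, of which 7 were kept cells in both, 187 in 1 library and 1508 in neither. Those kept only in the control had a median of 388 genes in QPC cKO. Those kept only in QPC cKO had a median of 477.5 genes in the control. Whether RNA or reads passed between the libraries was not tested.

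Complex III of the respiratory chain passes electrons from ubiquinol to cytochrome c and pumps protons across the inner mitochondrial membrane. It is built from subunits encoded in the nucleus and cytochrome b, encoded by mt-Cytb in the mitochondrial genome. Uqcrq is a small subunit beside cytochrome b. When the chain is blocked, animal cells are known to start the integrated stress response, in which the transcription factors ATF4, ATF5 and CHOP (Ddit3) raise genes of amino acid synthesis, amino acid import and mitochondrial folate metabolism.

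The compartments were first checked against their own markers. Expression is given as CPM, the UMIs of a gene summed over the cells of a compartment per 1000000 UMIs of that sum, with exact 95% Poisson intervals. These intervals, and the exact binomial intervals of shares of cells, cover counting error only. The label epithelial did not hold for all cells that met its rule in the control library. There, 1496 of 3069 cells (48.7%) had 10 to 19 keratin UMIs, and 82.9% of these also had at least 30 collagen UMIs, with a median of 717.5. In QPC cKO 164 of 1162 cells (14.1%) lay in that range, and 54.9% of them had at least 30 collagen UMIs. Cells with at least 40 keratin UMIs numbered 1528 in the control and 960 in QPC cKO, and 1.37% and 0.833% of these had at least 30 collagen UMIs.

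The low-keratin cells lay at the cut itself. In collagen cells with under 40 keratin UMIs the median keratin count was 9 in the control and 4 in QPC cKO. Just outside the cut, 780 control and 423 QPC cKO cells had 8 or 9 keratin UMIs. Just inside it, 699 and 114 had 10 or 11. The pigment minimum had 0 control and 4 QPC cKO cells at 5 to 9 pigment UMIs and 1 and 7 at 10 to 19. The collagen minimum had 113 and 199 cells at 20 to 29 UMIs and 75 and 161 at 30 to 39.

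**Figure D1:**
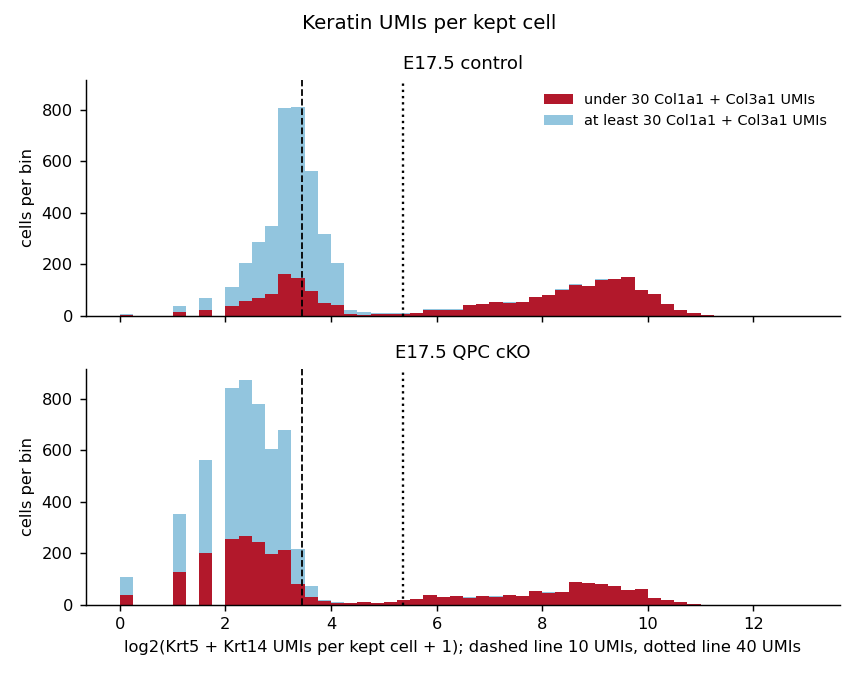
Kept cells per bin (y axis) by the log2 of Krt5 plus Krt14 UMIs per cell plus 1 (x axis) in the control (top) and QPC cKO library (bottom), stacked by collagen: blue for at least 30 Col1a1 plus Col3a1 UMIs and red for fewer. The control library has a mass of cells across the minimum of 10 (dashed line), most of them blue, and both libraries have few cells near 40 (dotted line).

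A setting chosen after these counts were seen is therefore given beside the rule. Under it, keratin-high cells have at least 40 Krt5 and Krt14 UMIs, fibroblasts have at least 30 collagen UMIs with under 40 of the keratins, and keratin-high cells are taken out of the endothelial and melanocyte cells. Only 27 control and 43 QPC cKO cells had 30 to 49 keratin UMIs. In the sum of the rule's epithelial cells, 10 other fibroblast markers together stood at 13250 and 2999 CPM, control before QPC cKO, with all 10 detected in both. In keratin-high cells they stood at 1927 and 1450 CPM, and 10 other epithelial markers at 14028 and 10995. That fibroblast sum was led by Dcn (950 and 744 CPM) and Postn (582 and 490). Col1a2 had 266 and 139 CPM in keratin-high cells, against 16374 and 11182 in fibroblasts of that setting. The pooled value is therefore no measure of fibroblast RNA in keratin-high cells. The keratin-high sums held 36441670 and 24375833 UMIs.

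Shares of kept cells followed the setting. By the rule, epithelial cells were 57.3% (interval 56.0 to 58.7) of kept cells in the control and 18.99% (18.02 to 19.999) in QPC cKO. Keratin-high cells were 28.5% (27.3 to 29.8) and 15.7% (14.8 to 16.6), a gap in the same direction and smaller. Fibroblasts were 32.9% and 54.8% by the rule, whereas at the keratin-high setting they were 56.5% and 56.4%, so this difference rested on the low-keratin cells. Melanocytes were 2.50% (2.10 to 2.96) of control cells and 16.0% (15.1 to 16.9) of QPC cKO cells, with 134 and 979 cells. Endothelial cells were 1.03% and 0.981%, with 55 and 60 cells. Embryo, dissociation and library cannot be told apart here.

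A gene was called when its log2 ratio of CPM plus 1, QPC cKO over control, was at least 1 in size and the Poisson intervals did not overlap, among genes with at least 100 UMIs over both libraries in that compartment. Rose and fell are used only for such genes. By the rule, 156 of 13462 genes rose (1.16%) and 1395 fell (10.4%) in the epithelial sum. In fibroblasts 92 of 12891 rose (0.714%) and 191 fell (1.48%), in the 3309 genes measured in endothelial cells 59 rose (1.78%) and 49 fell (1.48%), and in the 9844 in melanocytes 65 rose (0.66%) and 90 fell (0.914%). In keratin-high cells 134 of 11567 genes rose (1.16%) and 101 fell (0.873%). At that setting 109 of 13308 rose (0.819%) and 202 fell (1.52%) in fibroblasts, 61 of 3249 rose (1.88%) and 47 fell (1.45%) in endothelial cells, and 69 of 9817 rose (0.703%) and 94 fell (0.958%) in melanocytes.

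The pair of E15.5 control libraries of the series gave a gauge of spread within a group at another stage. Between them, 38 of 12047 genes (0.315%) passed the same limits in keratin-high cells and 64 of 12892 (0.496%) in fibroblasts. The study names kit versions for the E15.5 libraries without assigning them, so chemistry may differ from E17.5 as well as stage. This pair does not show the spread at E17.5. The same limit holds wherever E15.5 levels are given below. The E17.5 shares were 2.03% and 2.34%. In endothelial cells the E15.5 controls gave 0.522% against 3.32%, and in melanocytes 0.886% against 1.66%.

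Several of the rule's largest epithelial falls were genes of other cells. The 10 largest included the chemokines Ccl7 (225 and 2.72 CPM) and Ccl2 (997 and 41.4), the hyaluronan synthase Has1 (101 and 4.33), the microfibril gene Mfap5 (81.9 and 3.98) and the mast cell protease Cpa3 (418 and 17.9). Mast cell markers together stood at 1317 CPM in that control sum and 86.4 in QPC cKO, and at 119 and 60.2 in keratin-high cells. Among the 10 largest rises were 4 haemoglobin genes, whose reads near-identical copies can share, with Hbb-bs at 18.8 and 271 CPM. In keratin-high cells the erythroid markers together were at 5.41 and 5.17 CPM. The results below are therefore those of keratin-high cells unless the rule is named.

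Uqcrq itself, on chr11:53427922-53430831 (GRCm38, minus strand), was called in the epithelium, where it fell, and in no other compartment. Keratin-high cells held 4476 Uqcrq UMIs in the control, 123 CPM (119 to 126), and 668 in QPC cKO, 27.4 CPM (25.4 to 29.6), a log2 ratio of -2.12. The QPC cKO level was 22.3% of the control level. By the rule, whose control sum holds collagen cells, the values were 106 and 43.9 CPM with a log2 ratio of -1.25. Endothelial cells had 156 (132 to 184) and 165 (141 to 193) CPM, with intervals that overlapped. Fibroblasts had 69.0 (67.0 to 71.0) and 122 (119 to 125) CPM, a log2 ratio of 0.81. Melanocytes had 281 (262 to 302) and 206 (199 to 212) CPM (-0.45). In both, the intervals were apart but the difference was under 2-fold. The cause of these differences was not tested.

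Counted per cell, 90.8% of control and 32.0% of QPC cKO keratin-high cells had a Uqcrq UMI. No compartment here should lack this housekeeping gene, so the share that free RNA gives could not be measured. After each cell was thinned to 10000 UMIs, these shares were 68.2% (65.8 to 70.6, 1482 cells) and 19.5% (17.02 to 22.2, 938 cells). In fibroblasts they were 47.1% and 68.9%, and in melanocytes 93.0% and 85.6%. Because RNA was counted at its 3' end, a message shortened by the deletion would be counted too if it kept that end. Whether it did was not tested, so the remaining UMIs do not show how many cells kept an intact gene. In the E15.5 controls Uqcrq stood at 264 and 273 CPM in keratin-high cells and at 205 and 212 in fibroblasts, above both E17.5 libraries in each.

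The other subunits of complex III did not follow Uqcrq. Of the 10 subunits tested in keratin-high cells, 1 fell, Uqcrq, and the median log2 ratio was 0.00. The catalytic Rieske protein Uqcrfs1 had 187 and 163 CPM (-0.20) and cytochrome c1, Cyc1, 218 and 238 (0.13). The core proteins Uqcrc1 (329 and 327) and Uqcrc2 (186 and 190), the hinge protein Uqcrh (585 and 572) and Uqcrb, Uqcr10 and Uqcr11 had log2 ratios from -0.03 to 0.07. The largest other difference was in mt-Cytb, with 7349 and 4978 CPM (-0.56), while the complex I gene mt-Nd1 had 2360 and 3452 (0.55).

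**Figure D2:**
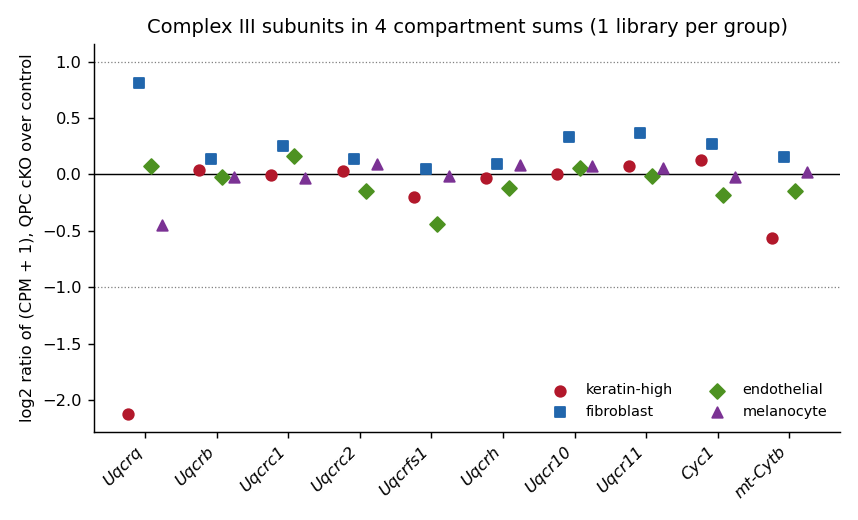
Log2 ratio (QPC cKO over control, of CPM plus 1) of each complex III subunit in keratin-high, fibroblast, endothelial and melanocyte sums. Uqcrq lies at -2.12 in keratin-high cells, and every other point lies within 1 of 0.

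The lists for the rest of the respiratory chain had medians near 0 in keratin-high cells. Lists of complex I (35 genes, median log2 ratio 0.02), complex II (-0.03), complex IV (0.04), ATP synthase (-0.05), the mitochondrially encoded genes (0.09, from -0.56 to 0.55), the TCA cycle (-0.03) and the mitochondrial ribosome (-0.06) held no called gene in any compartment. Cox6a2, a complex IV gene outside these lists, rose in keratin-high cells and is given further on. The median over all genes tested was -0.05 in keratin-high cells and 0.11 in fibroblasts, where the same lists had medians from 0.11 to 0.27. Fatty acid oxidation (16 genes, -0.22) and the mitochondrial chaperones and proteases (14 genes, -0.02) also had none called in keratin-high cells.

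Genes of the integrated stress response and of mitochondrial folate metabolism rose in the QPC cKO epithelium. Of 25 listed stress response genes 23 were tested in keratin-high cells, 8 rose and none fell, and the median log2 ratio was 0.71. In fibroblasts none of 24 rose and 2 fell (median -0.34), in endothelial cells none of 8 rose and 2 fell (-0.06), and in melanocytes 1 of 18 rose (-0.07). Of all genes tested, 1.16% rose in keratin-high cells, 0.819% in fibroblasts, 1.88% in endothelial cells and 0.703% in melanocytes. By the rule 25 listed genes were tested in the epithelial sum, 7 rose and 1 (Gdf15) fell, and the median was 0.19. Atf5, a transcription factor of the mitochondrial stress response, rose from 40.6 CPM (38.5 to 42.7) to 228 (222 to 234), a log2 ratio of 2.46. In fibroblasts, where Atf5 was already higher, it had 153 and 120 CPM (-0.35). The E15.5 controls had 24.2 and 29.01 CPM in keratin-high cells.

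Asns, which makes asparagine, rose from 41.4 to 114 CPM (1.45), with 21.1 and 15.3 in fibroblasts and 30.1 and 53.2 in melanocytes (0.80). Trib3, a pseudokinase induced by ATF4 and CHOP, rose from 3.02 to 18.99 CPM (2.31), and the glutathione-degrading Chac1 from 7 UMIs, 0.192 CPM, to 137 UMIs, 5.62 CPM (2.47). The stress protein gene Nupr1 rose from 6.83 to 44.7 CPM (2.54) and was the listed gene that also rose in melanocytes, from 5.26 to 18.8 (1.66). These 4 genes thus had low to moderate levels in the control epithelium.

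The secreted glycoprotein Stc2 rose from 2.31 to 15.6 CPM (2.33) and the translation inhibitor Eif4ebp1 from 46.9 to 108 (1.18). The cystine importer Slc7a11 rose from 0.274 to 5.17 CPM (2.28) in keratin-high cells and fell from 8.48 to 0.951 (-2.28) in fibroblasts, so the compartments moved in opposite directions. Atf4 itself, which is controlled largely at translation, had 140 and 148 CPM (0.08), and Ddit3 had 20.1 and 34.5 (0.75). Atf3 (302 and 192 CPM, -0.65), Ddit4 (-0.77) and Sesn2 (-0.64) lay on the other side of 0 without being called. Fgf21, with 7 and 86 UMIs, and Gdf15, with 7 and 16, were too low to be tested.

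In the list of serine and one-carbon synthesis, 3 of 15 genes rose in keratin-high cells (median 0.22), and none was called in fibroblasts (15 tested, 0.02) or melanocytes (11 tested, -0.19). Mthfd2, a mitochondrial folate enzyme, rose from 13.199 CPM (12.1 to 14.4) to 77.0 (73.6 to 80.6), a log2 ratio of 2.46, with 37.4 and 37.5 CPM in fibroblasts. Aldh1l2, the mitochondrial formyltetrahydrofolate dehydrogenase, rose from 1.84 to 21.004 CPM (2.95), and Psph, which completes serine synthesis, from 49.7 to 106 (1.08). The proline enzymes Pycr1 (0.99) and Aldh18a1 (0.93) missed the limit by little. Phgdh, the first enzyme of serine synthesis, had 343 and 388 CPM (0.18), and Shmt2 59.5 and 69.7 (0.22). Of 14 tRNA synthetases none was called (median 0.35), with Aars at 22.0 and 43.2 CPM (0.95). Over all genes tested in keratin-high cells 1.16% rose.

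**Figure D3:**
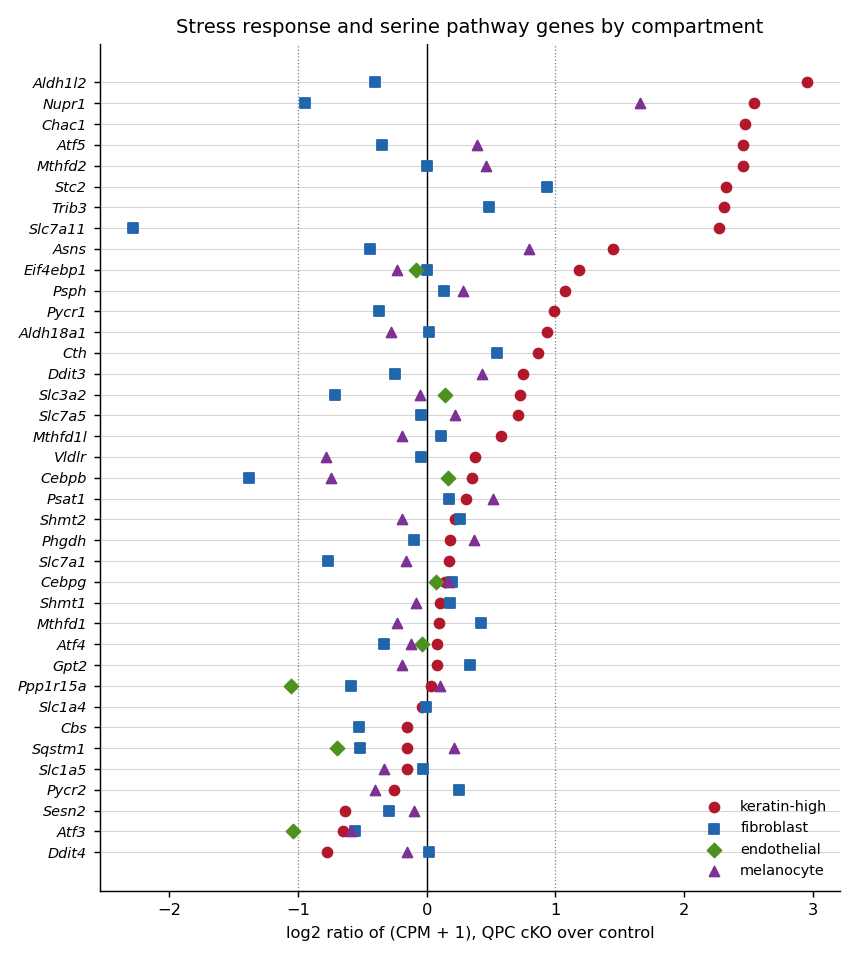
Log2 ratio (QPC cKO over control, of CPM plus 1, x axis) of integrated stress response and serine pathway genes (rows), with 1 point for each compartment in which the gene had enough UMIs to be judged, solid line at 0 and dotted lines at 2-fold. Atf5 lies at 2.46 in keratin-high cells and at -0.35 in fibroblasts.

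Promoters are shown for the risen members that contain the letters of the CEBP-ATF composite element, TGATGNAA, which ATF4 with a CEBP partner is known to bind. Sequences are from RefSeq (GRCm38.p6), run from 250 bases before to 50 after the gene start, 5' to 3' on the gene's strand, and capitals mark the match on either strand (TTNCATCA on the other). Asns lies at chr6:7693160-7693459 (minus strand), Chac1 at chr2:119350992-119351291 (plus), Nupr1 at chr7:126625421-126625720 (minus), Slc7a11 at chr3:50443564-50443863 (minus, 2 matches) and Trib3 at chr2:152344011-152344310 (minus). The match in Trib3 lies after the start.
Asns: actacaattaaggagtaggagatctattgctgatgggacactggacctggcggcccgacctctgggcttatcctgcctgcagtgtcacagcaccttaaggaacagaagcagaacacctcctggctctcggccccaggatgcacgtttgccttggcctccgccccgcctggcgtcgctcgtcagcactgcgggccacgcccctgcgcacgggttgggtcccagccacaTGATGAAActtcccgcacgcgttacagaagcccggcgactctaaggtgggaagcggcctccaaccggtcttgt
Chac1: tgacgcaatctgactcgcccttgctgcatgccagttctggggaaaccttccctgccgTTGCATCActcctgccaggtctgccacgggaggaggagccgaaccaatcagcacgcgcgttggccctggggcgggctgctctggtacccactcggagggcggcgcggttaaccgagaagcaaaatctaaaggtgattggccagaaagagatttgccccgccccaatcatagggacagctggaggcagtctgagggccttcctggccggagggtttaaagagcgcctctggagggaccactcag
Nupr1: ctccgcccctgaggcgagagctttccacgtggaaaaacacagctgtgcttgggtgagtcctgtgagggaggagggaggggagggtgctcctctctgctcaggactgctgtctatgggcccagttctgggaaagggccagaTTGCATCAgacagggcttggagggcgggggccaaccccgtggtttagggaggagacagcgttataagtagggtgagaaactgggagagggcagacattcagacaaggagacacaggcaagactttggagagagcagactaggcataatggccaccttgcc
Slc7a11: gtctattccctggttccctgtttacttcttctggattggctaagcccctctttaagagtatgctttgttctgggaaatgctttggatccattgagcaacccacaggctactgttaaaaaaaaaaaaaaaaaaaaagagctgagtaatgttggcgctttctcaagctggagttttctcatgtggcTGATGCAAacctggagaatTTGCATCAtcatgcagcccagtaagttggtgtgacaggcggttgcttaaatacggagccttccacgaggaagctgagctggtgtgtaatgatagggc
Trib3: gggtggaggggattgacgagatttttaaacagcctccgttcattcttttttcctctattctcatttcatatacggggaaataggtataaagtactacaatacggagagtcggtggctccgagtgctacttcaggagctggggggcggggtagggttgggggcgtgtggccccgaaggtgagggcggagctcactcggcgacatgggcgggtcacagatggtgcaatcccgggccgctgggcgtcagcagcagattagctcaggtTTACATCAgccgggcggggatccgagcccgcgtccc

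Of the 11 risen genes of both lists 9 were found in the promoter table, and 5 of the 9 held the motif (55.6%). Among the other tested members 4 of 23 held it (17.4%: Atf3, Pycr1, Slc1a4 and Vldlr). Of all 27025 genes listed there, 1219 did (4.51%). The lists were built from genes known to belong to this response, and the risen members were picked by their calls in these data. The shares are therefore a description and test nothing. A match is a run of letters in this window and does not show binding.

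The epithelium differed in other genes as well. The largest rise in keratin-high cells was in Ccl20, a chemokine that draws CCR6-bearing cells, with 8 UMIs or 0.220 CPM (0.0948 to 0.433) in the control and 403 UMIs or 16.53 CPM (14.96 to 18.2) in QPC cKO (3.85). Ccn2, a matricellular protein and target of YAP, rose from 5.95 CPM (5.19 to 6.80) to 80.2 (76.7 to 83.8), a log2 ratio of 3.55, with 10.5 and 5.46 CPM in fibroblasts and 52.2 and 61.0 in endothelial cells. The E15.5 controls had 4.50 and 5.25 CPM of Ccn2 in keratin-high cells. Also among the 10 largest rises were Upk3bl (0.137 to 12.6 CPM, 3.58), Cox6a2, the muscle form of a complex IV subunit (0.192 to 9.39, 3.12), and Slc7a3, an importer of cationic amino acids (0.274 to 9.39, 3.03).

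The wound keratin Krt6a rose from 1.40 to 11.2 CPM (2.35), the 1 of 6 tested stress keratins and alarmins that rose. Rises were also found for the cytokine Il1b, from 2.003 to 7.63 (1.52), Pthlh, which encodes parathyroid hormone-related protein, from 36.1 to 96.6 (1.40), and the defensin Defb1 from 10.7 to 63.9 (2.48). In fibroblasts Il1b fell, from 3.92 to 0.699 CPM (-1.53). The immune markers together stood at 28.8 and 45.7 CPM in the keratin-high sums. The part of immune cell RNA in the rise of Il1b was not tested. Hoxc13, a regulator of hair keratins, rose from 8.34 to 26.5 CPM (1.56) and the follicle stem cell gene Lgr5 from 3.21 to 9.97 (1.38). Of 21 tested genes of the hair follicle list, which lacks Lgr5, 2 rose, Pthlh and Hoxc13 (median 0.05). Over all genes tested in keratin-high cells 1.16% rose. Cells with under 20 Krt1 and Krt10 UMIs and at least 3 of Sox9, Lhx2 and Shh were 30.6% and 48.9% of keratin-high cells. The part of this difference in the rises of Pthlh, Hoxc13 and Lgr5 was not tested.

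Pigment genes also rose in keratin-high cells, Dct from 3.18 to 24.0 CPM (2.58) and Pmel from 2.17 to 18.5 (2.63), and they rose in fibroblasts too, Dct from 2.34 to 14.7 (2.23). In melanocytes Dct stood at 4707 and 5082 CPM. The rise of Ptgds (1.92 to 23.6 CPM in keratin-high cells, 1.64 to 11.8 in fibroblasts) went the same way, and Ptgds had 2973 and 4376 CPM in melanocytes. The QPC cKO library held more melanocytes, and the part of free melanocyte RNA in these rises was not tested.

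Among the falls were genes of the Hox clusters. Hoxb9 fell from 31.0 CPM (29.3 to 32.9) to 2.17 (1.63 to 2.84), a log2 ratio of -3.34, while fibroblasts had 21.9 and 23.1. Hoxa7 fell from 184 to 29.4 CPM (-2.61), with 16.0 and 17.4 in fibroblasts, and Hoxd8 from 12.9 to 3.16 (-1.74). Hoxa9 fell from 9.93 to 1.44 CPM (-2.17) in keratin-high cells and rose from 11.8 to 42.6 (1.76) in fibroblasts. In the E15.5 controls Hoxb9 stood at 9.12 and 8.87 CPM and Hoxa7 at 99.2 and 116 in keratin-high cells, between the E17.5 libraries.

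The early differentiation keratins Krt1 (1511 to 558 CPM, -1.44) and Krt10 (1438 to 543, -1.40) fell in keratin-high cells. By the rule, whose control sum holds collagen cells, Krt1 had 925 and 636 CPM and Krt10 911 and 600, and neither was called. In QPC cKO both levels were higher by the rule than in keratin-high cells, so the cells left out there were richer in these keratins. In the control both were lower by the rule. The part of this uneven loss in the falls was not tested. Krt1 also fell in cells that are not known to make it, from 65.5 to 24.0 CPM in fibroblasts (-1.41) and from 75.0 to 24.97 in melanocytes (-1.55), and the part of free keratin RNA there was not tested. Of 36 genes of spinous and granular differentiation 18 were tested in keratin-high cells, 2 rose (Sprr1b and Abca12) and 2 fell (Krt1 and Krt10), with a median of -0.34. By the rule 19 were tested, 3 rose and none fell, with a median of 0.20, so the sign of this median depended on the setting. In keratin-high cells the 18 basal and hemidesmosome genes had none called and a median of 0.00. Immediate early genes also fell and are given further on. Of the 21 genes the study names at this stage, a list chosen on these libraries, 3 fell (Fos, Krt1 and Krt10) and none rose. By the rule 3 rose and 1 fell. The list mixes genes that the study gives as higher, as lower and only as cluster markers. The study compared basal and suprabasal clusters separately and with other limits, so these counts are not a check of its results. Of 54 cytosolic ribosome genes none was called in keratin-high cells, 53 lay above 0 and the median was 0.20, against -0.05 over all genes tested.

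Of 23 genes of AP-1 and the immediate early response, 4 fell in keratin-high cells (Fos, Ier2, Socs3 and Zfp36, list median -0.50) and 4 in fibroblasts (Nr4a1, Nr4a2, Myc and Fosl1, list median -0.23), and none rose in either. Fos, a subunit of AP-1, fell from 1371 to 640 CPM (-1.10), with 1724 and 3004 in fibroblasts (0.80). Socs3, a feedback inhibitor of cytokine signals, fell from 112 to 36.5 CPM (-1.59), with 241 and 231 in fibroblasts. Zfp36, which destabilises cytokine mRNA, fell from 220 to 97.5 (-1.17). Over all genes tested, 0.873% fell in keratin-high cells and 1.52% in fibroblasts.

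Changes that stayed in the epithelium were defined as calls in keratin-high cells with a log2 ratio under 0.5 in size, or of the opposite sign, in each of the other compartments that measured the gene. A gene had to be tested in fibroblasts and in endothelial cells or melanocytes. Of the 134 genes that rose, 49 could be judged and 25 (51.0%) stayed in the epithelium. Of the 101 that fell, 42 could be judged and 17 (40.5%) did. Of all 9476 genes that could be judged, called or not, 88.2% met the same outside limit for a rise and 91.8% that for a fall. The other 85 and 59 were too low outside the epithelium. In fibroblasts 8 of the rises and 19 of the falls were called the same way, and 6 and 7 the opposite way. By the rule, 13 of 31 rises and 384 of 594 falls met the same definition.

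The rises that stayed in the epithelium were led by Ccn2, Atf5 and Mthfd2. After them came Pard3b, a polarity gene (2.96 to 14.9 CPM, 2.01), Dpysl3 (1.69), the claudin Cldn10 (1.66), the linker histone Hist1h1c (1.59, with near-identical paralogs), Igfbp4, which binds insulin-like growth factors (29.005 to 79.6, 1.43), the kinase Tnik (1.41) and the glutamine transporter Slc38a1 (1.29). Igfbp4 shows the pattern at high level, with 231 and 209 CPM in fibroblasts and 678 and 765 in endothelial cells.

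The falls that stayed there were led by Arrdc4, an arrestin that lowers glucose uptake (18.1 to 2.79 CPM, -2.33, with 15.2 and 12.8 in fibroblasts), and Uqcrq. Mfap4 (20.4 to 4.84 CPM), Eln (13.31 to 3.49) and Fabp4 (6.31 to 1.93) are matrix, elastic fibre and fat genes, and stood at 670 and 475, 450 and 333, and 177 and 136 CPM in control and QPC cKO fibroblasts, log2 ratios of -0.49, -0.43 and -0.38. The collagen genes Col1a1 and Col3a1 together stood at 700 and 371 CPM in the same keratin-high sums, and the part of fibroblast RNA in these 3 falls was not tested. The peroxisomal and mitochondrial glutathione transferase gene Gstk1 fell from 19.4 to 8.16 CPM (-1.16), with 7.60 and 7.73 in fibroblasts. The scaffold Slc9a3r1 fell from 44.9 to 17.97 (-1.27), with 18.2 and 18.05. Gsta4, which detoxifies lipid peroxidation products, fell in keratin-high cells (47.7 to 11.3, -1.99) and in melanocytes (37.5 to 11.7, -1.61).

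**Figure D4:**
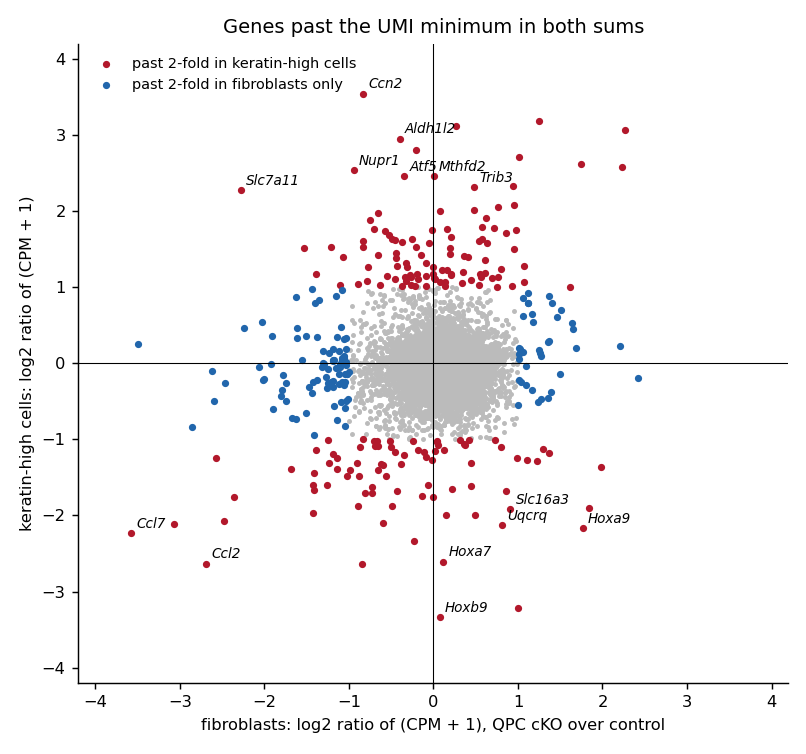
Log2 ratio (QPC cKO over control, of CPM plus 1) in fibroblasts (x axis) and in keratin-high cells (y axis), 1 point per gene judged in both, in red where past 2-fold in keratin-high cells and in blue where past 2-fold in fibroblasts only. Ccn2, Atf5 and Mthfd2 lie high on the y axis at or left of 0 on the x axis, and Hoxb9, Hoxa7 and Uqcrq lie low and right of 0.

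Keratin-high cells were cut by Krt1 and Krt10 (at least 20 UMIs as a mark of differentiation) and below that by the follicle genes Sox9, Lhx2 and Shh. Of control and QPC cKO keratin-high cells, 36.8% and 26.3% had under 20 differentiation UMIs and no follicle UMI, 30.6% (28.3 to 32.9) and 48.9% (45.6 to 52.1) had at least 3 follicle UMIs, and 10.9% and 6.46% were in the differentiated range. These are ranges and not cell types, and 104 and 39 cells had 10 to 39 differentiation UMIs. Atf5 rose by 2.82 on the log2 scale without follicle UMIs, by 2.98 with 1 or 2, by 2.11 with at least 3 and by 2.11 in the differentiated range. Asns rose by 1.45, 1.505, 1.49 and 1.69, and Mthfd2 by 2.70, 2.63, 2.03 and 2.94. In the same order 6 of 21, 6 of 21, 7 of 21 and 6 of 19 tested genes of the stress response list rose, with medians of 0.39, 0.55, 0.59 and 0.59. Of all genes tested in those ranges, 0.701%, 0.514%, 0.879% and 0.678% rose, and 1.36%, 0.937%, 0.612% and 1.22% fell. In that list Sesn2 fell without follicle UMIs and Atf3 in the differentiated range.

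Other genes were spread unevenly over the ranges. Ccl20 had 0 UMIs in the control and 36.4 CPM in QPC cKO without follicle UMIs, and 0.723 and 13.22 CPM with at least 3. In the differentiated range it had 0 and 1 UMI. Krt6a rose from 3.74 to 106 CPM in the differentiated range (4.49) and from 2.89 to 6.92 with at least 3 follicle UMIs (1.02), and had 1 UMI in each library without them. Within the differentiated range Krt1 stood at 11529 and 7134 CPM (-0.69). Hoxa7 fell in every range, with log2 ratios from -2.83 to -2.52, as did Uqcrq, from -2.81 to -1.91.

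The QPC cKO library also held keratin-high cells with Uqcrq UMIs, which allowed a comparison within the library, added after the results above were seen. Of 960 cells, 653 (68.0%) had 0 Uqcrq UMIs, 218 had 1 or 2 and 89 (9.27%) had at least 3. Their median depths were 25596, 26732.5 and 26320 UMIs. In the control 140 cells had 0 and 808 at least 3, with medians of 18654 and 26254. The cells are not replicates, Uqcrq chose the groups, free RNA can add Uqcrq UMIs to a cell, and no test was made.

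In QPC cKO cells without Uqcrq UMIs, 76 of 9626 genes were past the limits on the higher side (0.79%) and 249 on the lower (2.59%), against cells with at least 3. In the control 72 of 10112 (0.712%) and 43 (0.425%) were. Atf5 had 243 CPM (235 to 251) in QPC cKO cells with 0 and 64.8 (54.9 to 76.0) with at least 3. In the control it had 48.95 (40.7 to 58.3) and 42.8 (40.03 to 45.7). Asns had 122 and 39.5 CPM in QPC cKO and 34.5 and 44.4 in the control. Mthfd2 had 78.3 and 31.8 against 14.1 and 14.0 in the control. QPC cKO cells with 1 or 2 Uqcrq UMIs had 250 CPM of Atf5 (237 to 264), 124 of Asns (115 to 134) and 91.8 of Mthfd2 (84.1 to 100.03). For these 3 genes the cells with 1 or 2 UMIs stood with those that had 0, and the QPC cKO cells with at least 3 lay nearer to the control.

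Trib3 had 19.2 CPM (17.2 to 21.5) with 0 Uqcrq UMIs, 23.8 (19.99 to 28.2) with 1 or 2 and 5.58 (2.97 to 9.54) with at least 3. Ccn2 had 89.5 and 10.7 CPM, Aldh1l2 22.2 and 4.29, and Stc2 16.8 and 3.86. Over the stress list 7 of 21 genes were on the higher side and 2 on the lower (median 0.42), against none of 19 in the control (0.18). Of 15 serine and one-carbon genes 2 were on the higher side (median 0.03), against none of 13 in the control (-0.32). The S phase list had medians of -0.59 in both libraries, with none of 22 called in QPC cKO and 2 on the lower side in the control. Among genes lower without Uqcrq UMIs, Fos had 534 CPM with 0, 674 with 1 or 2 and 1302 with at least 3, against 1265, 1361 and 1390 in the control.

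The lists differed in this split. Of 20 cholesterol synthesis genes 9 were on the lower side in QPC cKO (median -0.91) and none in the control (-0.07). Of 22 AP-1 genes 13 were (-1.09), with 2 on the higher side in the control (0.10). Of 14 inflammatory genes 8 were lower and 1 higher (-1.38), with 3 on the higher side in the control (0.20). Without control cells that carried markers of other types, 0 inflammatory genes and 1 AP-1 gene were on the higher side there. Without such cells in QPC cKO, 8 inflammatory genes were lower and 1 higher (-1.44). The part of free fibroblast and melanocyte RNA in this split was not tested. Glycolysis had 1 of 17 lower (-0.38) and hypoxia none of 15 called (-0.08).

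Among the largest differences between the libraries, Ndufa4l2 and Egln3 had overlapping intervals with 0 and with at least 3 Uqcrq UMIs in QPC cKO. Ndufa4l2 had 79.6 CPM with 0 and 81.5 with at least 3 in QPC cKO, and 287 and 282 in the control. Egln3 had 17.3 and 14.2 against 56.4 and 56.4. Hoxa7 was higher with at least 3, at 26.2 CPM (23.8 to 28.8) and 45.9 (37.6 to 55.5) against 182 and 179. Hoxb9 was too, at 0.857 (0.468 to 1.44) and 6.01 (3.28 to 10.1) against 32.1 and 29.3. For these 4 genes the QPC cKO cells with at least 3 Uqcrq UMIs stayed apart from the control cells. The QPC cKO cells with at least 3 also held more Dct, 96.5 CPM against 11.7. Without cells that carried markers of other types 85 such cells were left, and the stress list then had 8 genes on the higher side and 2 on the lower (median 0.45), cholesterol a median of -0.96, AP-1 of -1.12 and the serine and one-carbon list of 0.29 (2 of 15 on the higher side).

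**Figure D5:**
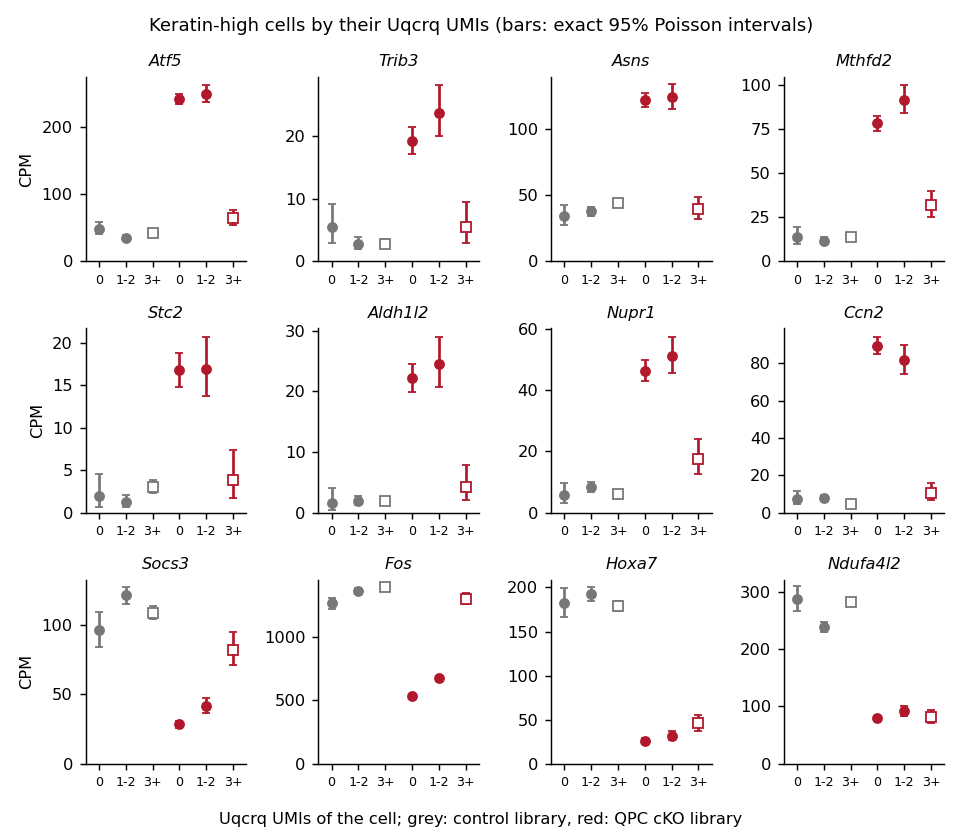
CPM (y axis, from 0) of 12 genes in keratin-high cells with 0, 1 or 2 and at least 3 Uqcrq UMIs (x axis; open squares for at least 3), for the control (grey) and the QPC cKO library (red), with exact 95% Poisson intervals. In QPC cKO cells Atf5 stands at 243 CPM with 0, 250 with 1 or 2 and 64.8 with at least 3, while Hoxa7 stands at 26.2 with 0 and 45.9 with at least 3, both under the control values of 182 and 179.

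Metabolic lists separated the compartments. All 18 glycolysis genes had a log2 ratio below 0 in keratin-high cells (median -0.65), and 1 fell, the lactate exporter Slc16a3, from 27.1 to 6.44 CPM (-1.92). The E15.5 controls had 4.18 and 5.40 CPM of Slc16a3 in keratin-high cells. The glucose transporter Slc2a1 had 504 and 270 CPM and lactate dehydrogenase Ldha 726 and 403, short of the limit. In fibroblasts 13 of 17 genes were above 0 (median 0.37) and none was called, with Ldha at 457 and 559.

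The melanocytes had the largest median difference in glycolysis of the 4 compartments. There 11 of 17 genes fell, the median was -1.27 and none was above 0. Over all genes tested in melanocytes 0.958% fell. Slc16a3 fell from 51.2 CPM (43.2 to 60.2) to 2.90 (2.18 to 3.78), a log2 ratio of -3.74. Ldha fell from 1207 to 467 (-1.37), Pgk1 from 553 to 196 (-1.49) and Aldoa from 781 to 256 (-1.60). Enolase Eno1 (-1.46), Slc2a1 (-1.38) and Hk2 (-1.27) fell as well. The control sum rests on 134 cells and 2853401 UMIs. Mast cell markers, among them Kit, moved from 3320 to 1052 CPM in the same sums. The part of mast cell RNA in these falls was not tested. Uqcrq had 281 CPM (262 to 302) and 206 (199 to 212) in these melanocytes, and recombination was not measured.

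Targets of the hypoxia-inducible factor shared this pattern. In keratin-high cells 3 of 16 fell (median -0.52, none above 0), with the oxygen sensor Egln3 from 53.7 to 16.9 CPM (-1.61), Ankrd37 from 18.7 to 7.9997 (-1.13) and Pfkfb3 from 14.9 to 6.93 (-1.01). In melanocytes 4 of 13 fell (-0.56), among them the mitophagy receptor Bnip3, from 29.8 to 8.43 (-1.71). In fibroblasts 1 of 17 rose (0.26), Ankrd37, from 6.17 to 16.54 (1.29). Ankrd37 thus had opposite calls in epithelium and dermis. Over all genes tested, 0.873% fell in keratin-high cells, 0.958% fell in melanocytes and 0.819% rose in fibroblasts.

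Cholesterol synthesis took opposite signs in epithelium and dermis. In keratin-high cells all 20 genes lay below 0 and 1 was called, with a median log2 ratio of -0.54. In fibroblasts all 20 lay above 0 and 1 was called (0.48). Hmgcs1, which commits acetyl groups to the pathway, had 303 and 201 CPM (-0.59) in keratin-high cells and 120 and 178 (0.56) in fibroblasts, without being called. Between the E15.5 controls the list's median differed by -0.23 in keratin-high cells and -0.24 in fibroblasts, so libraries of 1 group moved this list in the same direction in both.

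S phase genes had a median of -0.31 in keratin-high cells (none of 22 above 0) and 0.27 in fibroblasts, and G2/M genes 0.12 and 0.68, and none was called in those compartments. All 23 G2/M genes lay above 0 in fibroblasts. By the rule 5 of them rose there (Cenpf, Ube2c, Aurka, Top2a and Ccnb1, list median 0.86). The replication histone Hist1h2ap, which has near-identical paralogs, rose in all 4 compartments, from 42.1 to 85.6 CPM in keratin-high cells (1.005) and from 63.8 to 197 in fibroblasts (1.61).

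In the dermis the largest list difference was in inflammatory genes. Of 17 tested in fibroblasts 10 fell (median -1.50), with the monocyte chemokine Ccl2 from 1930 to 298 CPM (-2.69), Cxcl1 from 2029 to 340 (-2.57), Cxcl2 from 1809 to 249 (-2.85) and Ccl7 from 357 to 29.1 (-3.57). Endothelial cells had 5 of 7 lower (-1.40) and melanocytes 4 of 10 (-0.66). Over all genes tested, 1.52% fell in fibroblasts, 1.45% in endothelial cells, 0.958% in melanocytes and 0.873% in keratin-high cells. Mast cell markers moved from 772 to 37.2 CPM in the endothelial sums and from 3320 to 1052 in melanocytes. Immune markers moved from 59.8 to 8.26 and from 154 to 75.7. The part of RNA of these cells in the endothelial and melanocyte falls was not tested. In keratin-high cells 5 of 18 fell (Ccl2, Ccl7, Cxcl1, Cxcl12 and Il6) and 2 rose (Ccl20 and Il1b), with a median of -0.26. There Ccl7 had 13.17 and 2.01 CPM and Cxcl1 58.3 and 23.9, each under its fibroblast level. Since Col1a1 and Col3a1 together also moved from 700 to 371 CPM there, and the part of fibroblast RNA was not tested, these 5 are not read as falls of the epithelium's own RNA. The E15.5 control fibroblasts had 21.8 and 27.2 CPM of Ccl2 and 4.52 and 4.06 of Ccl7. The control library of E17.5 therefore lay above the E15.5 controls in these genes, as did QPC cKO to a lesser degree. Cebpb, a transcription factor of the inflammatory and stress responses, fell from 878 to 337 CPM (-1.38) in fibroblasts and had 202 and 258 in keratin-high cells.

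Some Hox genes and dermal papilla genes rose in fibroblasts. Hoxa10 rose from 0.965 CPM (0.744 to 1.23) to 22.9 (21.8 to 24.1), a log2 ratio of 3.60, with 9.24 and 13.9 in the E15.5 controls, and Hoxc10 from 11.9 to 69.2 (2.44), while Hoxb9 had 21.9 and 23.1 there. These genes mark position along the body axis, and the axial level at which each skin was taken is not given in the sources used here. The same holds for the Hox falls in keratin-high cells. Of 13 dermal papilla genes 5 rose and 1 fell (median 0.76), with Sox2 from 8.45 to 25.3 CPM (1.48), Alx4 from 7.47 to 22.9 (1.499) and Sox18 from 53.1 to 145 (1.43). The growth factor Fgf7 fell from 25.9 to 11.6 (-1.09). Of 11 Wnt targets 3 rose (0.69), among them Notum (3.03 to 9.34) and Dkk1 (18.5 to 43.9). Over all genes tested in fibroblasts 0.819% rose and 1.52% fell. The haemoglobin gene Hbb-bt rose here at the keratin-high setting (5.78 to 44.5 CPM) and had 1.17 and 0.799 by the rule, so that rise lay in cells with 10 to 39 keratin UMIs.

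The endothelial sums, of 54 and 59 cells, differed in matrix genes. Over all genes tested there 1.88% rose and 1.45% fell. Of 15 collagen and matrix genes 12 rose (median 1.27), with Eln from 19.6 to 281 CPM (3.78) and Vcan from 13.04 to 105 (2.92), and Lrat, which stores retinol, from 28.3 to 187 (2.68). The 10 fibroblast markers together moved from 1382 to 3835 CPM in these cells, the 6 pericyte markers from 44.6 to 187 and the 7 erythroid markers from 20.6 to 178. The vascular markers stood at 4660 and 3836 CPM, and of 16 vascular genes none rose and 2 fell. Cma1 fell from 408 to 7.23 CPM, and 1 of 54 control cells and 0 of 59 QPC cKO cells (a count of 0 allows up to 3) had at least 200 UMIs of the mast cell genes Cma1 and Cpa3. The part of mast cell, fibroblast, pericyte and erythroid RNA in these differences was not tested.

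Melanocytes kept their own markers, which together stood at 4851 and 4580 CPM, and of 14 pigment genes 1 rose and 1 fell. The mast cell markers stood at 3320 and 1052 CPM in these sums, with 4 of 134 and 12 of 972 cells at 200 or more UMIs of Cma1 and Cpa3, and Cpa3 fell from 882 to 171 CPM (-2.36). The mast cell markers include Kit, also a listed melanocyte marker, which had 535 and 361 CPM of these sums. Among the largest rises were Pf4, from 3.15 to 24.4 CPM (2.61), and Olfml1, from 1 UMI to 156 (2.80). Pf4, a platelet chemokine, fell in keratin-high cells from 12.2 to 1.11 (-2.64). The part of RNA from other cells in both Pf4 differences was not tested.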

How the data were processed

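The values deposited by the authors are raw UMI counts for each gene in each cell barcode. The authors made them with Cell Ranger on mm10 (the submitters' notes name versions 1.3.1 and 6.1.2), with barcodes restricted to called cells. Of 32285 gene identifiers 32158 were found in GENCODE M21. The members, the 39 gene lists and the limits were chosen with earlier results of these data known. The keratin-high setting, the ranges and the split by Uqcrq UMIs were added after the data were seen. UMIs were summed per library and compartment with numpy 2.4.6 and pandas 2.3.3, and Poisson and Clopper-Pearson intervals came from scipy 1.17.1. Cells in 2 compartments counted in both by the rule (73 control, 65 QPC cKO), and no doublet caller was run. The call was tried only on simulated Poisson counts. These hold no spread between embryos or libraries, so its error from that spread was not tested.

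Named genes were the complex III subunits, the stress and serine lists, the 10 largest rises and falls in the epithelium and among epithelium-only genes, 5 in each other compartment, up to 2 highest and lowest members per list, and genes of the study. Genes outside this, such as those of the fibroblast, glycolysis and split paragraphs, were chosen after their values were seen. Alternatives changed the scaling, pseudocount, UMI minimum, cell filters, gate minimum and keratinocyte range. The values of 1 gene are not reported here.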

Additional observations from a re-analysis of the deposited data

Results flagged for a closer look

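In the following results the epithelium and the fibroblasts lay on opposite sides of 0, each as a log2 ratio of QPC cKO over control, with keratin-high cells named before fibroblasts. With 1 library per genotype, the difference was not tested in any of them. Uqcrq had -2.12 and 0.81. The integrated stress response list had medians of 0.71 and -0.34. The glycolysis list had -0.65 and 0.37, and cholesterol synthesis -0.54 and 0.48. Stress keratins and alarmins, of which 6 were tested in each compartment, had 0.40 and -0.74, with 1 called higher in keratin-high cells and 2 lower in fibroblasts. Krt5 and Krt14 together stood at 409 and 232 CPM in the same fibroblast sums, and the part of free keratinocyte RNA in the fibroblast value was not tested.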

How the results depend on the processing

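No paired analysis was possible because each genotype has 1 library at E17.5. By the rule, 1551, 283, 108 and 155 genes passed the limits in epithelial, fibroblast, endothelial and melanocyte sums, 13 rises and 384 falls stayed in the epithelium, and the Uqcrq log2 ratio was -1.25. Without mitochondrial, ribosomal and haemoglobin genes 30 rises stayed there and Uqcrq had -1.14. A pseudocount of 5 CPM gave 725 epithelial, 134 fibroblast and 70 melanocyte genes, 244 falls that stayed and -1.18. A minimum of 10 UMIs per gene gave 397 endothelial and 293 melanocyte genes and 39 rises and 623 falls that stayed, and one of 500 gave 20, 39, 4 and 171. Cells under 5% mitochondrial UMIs gave 53 rises that stayed and -0.80. No upper limit on genes gave 218 endothelial and 313 melanocyte genes. Leaving out cells of more than 1 compartment gave 70, 321 and a Uqcrq ratio of -1.39. A keratin minimum of 20 gave 255 epithelial genes, 24 and 21 that stayed, and -2.01. Under 20 Krt1 and Krt10 UMIs the ratio was -1.17, and at or above it -2.60, with 114 genes and 30 falls that stayed. The keratin-high setting gave 235, 25, 17 and -2.12. From that setting, the scaling without those genes gave 38 rises that stayed. The pseudocount of 5 gave 88 epithelial and 147 fibroblast genes, 9 and 10 that stayed, and -1.98. The UMI minimum of 10 gave 46 and 30 that stayed, and that of 500 gave 93 genes, 8 and 5. No upper limit gave -1.82. The differentiated range gave 126 genes, 35 falls that stayed and -2.81, the range without follicle UMIs 43 falls and -1.93, and the range with at least 3 gave 151 genes and -1.91. The epithelial share differed by -38.3 percentage points, and by -36.3 without the upper limit, -13.1 at a minimum of 20, -12.8 after thinning to 5000 UMIs and -12.9 at the keratin-high setting. The fibroblast share differed by 22.0 points, and by 28.2 under 5% mitochondrial UMIs, 18.4 at a minimum of 20, and with the opposite sign, -4.66 after thinning and -0.12 at the keratin-high setting. The melanocyte share differed by 13.499 points, and by 6.39 under 5% mitochondrial UMIs. Of the epithelial calls 10.1% were rises by the rule, 20.2% under 5% mitochondrial UMIs, 51.4% at a minimum of 20, 57.0% at the keratin-high setting and 62.8% when that was also scaled by the median ratio. From the keratin-high setting falls outnumbered rises at a minimum of 500 UMIs (48.4% rises), under 5% mitochondrial UMIs (48.9%), without follicle UMIs (34%) and in the differentiated range (35.7%). Under the alternatives to the keratin-high setting the stress list kept a median of 0.36 to 0.78 in the epithelium, and by the rule it had 0.19, with 7 genes higher and 1 (Gdf15) lower. The causes of these moves were not tested. Depth limits the endothelial sums, of about 54 to 60 cells, and genes under 100 UMIs were not judged.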
